A study of Mus musculus with 8 samples.

Results

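tRNA-Glu-CTC and tRNA-Glu-TTC are the nuclear-encoded transfer RNAs for glutamate, each named by its anticodon, and the members described here are the fragments of them found in mouse sperm. A distinct fragment was taken as a member when every RNA name in its deposited annotation was a nuclear tRNA-Glu name and none was a mitochondrial tRNA. The rule found 1744 members among 5724730 distinct fragments of 8 libraries, 23491 of which carry only nuclear tRNA names. Of the members, 487 are named tRNA-Glu-CTC alone, 1037 tRNA-Glu-TTC alone and 220 both. A further 29 fragments, which name tRNA-Glu beside another RNA, were left out.

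The study asked whether AgRP neurons, cells of the arcuate nucleus that drive feeding, change the small RNA that sperm carry. Activated mice were Agrp Cre/+ and controls were Agrp +/+, with 4 males in each group and 1 library of 100 ng of RNA per mouse. Males aged 8 weeks in both groups received AAV9 hSYN-DIO-hM3D(Gq)-mCherry in the arcuate nucleus, a virus whose excitatory receptor is made only in cells with Cre, so controls had the virus and CNO but no Cre. CNO, the drug that the receptor answers to, was given to all of them at 1 mg per kg 3 weeks later, 1 h after food was removed, and sperm was taken from the caudae epididymides 4 h after CNO with food still absent. Sperm was released from cut caudae into saline and washed, and no step that lyses other cells is stated; the authors assayed purity by qPCR of marker genes, whose values are not used here. Single reads of 50 bp were trimmed and those of 15 to 45 bp kept, so a whole tRNA is out of reach and 45 nt is the longest fragment that can be seen.

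Libraries held 14903635, 17489698, 14757501 and 9409491 reads in activated replicates 1 to 4 and 12421068, 23123740, 9297271 and 14348060 in control replicates 1 to 4. They fall into sets that do not follow the groups: mitochondrial rRNA took 1.89, 1.69, 1.21 and 1.09% of reads in activated replicates 2 and 3 and control replicates 1 and 3 (the rich set), and 0.182, 0.145, 0.167 and 0.123% in activated replicates 1 and 4 and control replicates 2 and 4 (the poor set). Each set holds 2 activated and 2 control libraries, and values within the sets are given beside the main results. With 4 against 4, the smallest p that the exact permutation test over all 70 assignments can give is 0.0286.

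A tRNA folds into an acceptor stem, which joins its ends, and arms that end in loops, of which the anticodon loop reads the codon. The CCA at its 3' end is not in the gene but is added after transcription, so a fragment that ends in CCA and does not match the genome comes from a tRNA whose 3' end was completed. Nucleases that cut in the anticodon loop leave a 5' piece and a 3' piece, and the 5' pieces of tRNA-Gly and tRNA-Glu are abundant in sperm of the cauda, where vesicles from the epididymal epithelium are one known source of them.

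For each anticodon, molecules of 75 bases were joined from overlapping member fragments of the deposited files, and the end and the place of every fragment are read on them. Positions are counted from 1 at the 5' end, and the anticodon lies at 34 to 36. Glu-TTC has a pair of copies, shown because their fragments can be told apart, with capitals for the anticodon and for the bases at which the copies differ.
Glu-TTC copy 1: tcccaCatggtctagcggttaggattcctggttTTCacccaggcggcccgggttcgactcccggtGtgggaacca
Glu-TTC copy 2: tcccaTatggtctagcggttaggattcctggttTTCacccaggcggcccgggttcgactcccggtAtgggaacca

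The Glu-TTC copies differ by C6T and G66A, counted on copy 1, bases that face each other in the acceptor stem. RefSeq lists 12 n-TEctc genes on 8 chromosomes and 8 n-TEttc genes on 6 chromosomes of GRCm38.p6, the assembly behind mm10. Each of those 20 genes is 72 bases long, the length of the molecules without CCA. No genome sequence was at hand, so the gene that a fragment came from cannot be told.

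The next Glu-TTC fragments carry much of the results: the most abundant ones of each main kind, and the 31 nt 5' fragment, which had the lowest edgeR adjusted p of all tested members. Capitals mark anticodon bases in the 5' fragments and the added CCA in the CCA fragments.
Glu-TTC 5' end, 36 nt, start 1, copy 1: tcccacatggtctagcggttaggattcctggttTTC
Glu-TTC 5' end, 31 nt, start 1, copy 1: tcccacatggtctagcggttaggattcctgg
Glu-TTC CCA end, 22 nt, start 54: tcgactcccggtgtgggaaCCA
Glu-TTC CCA end, 34 nt, start 42: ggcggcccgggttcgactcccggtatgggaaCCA
Glu-TTC internal, 19 nt, start 42: ggcggcccgggttcgactc

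Of the 1744 members, 1719 lie base for base on one of the joined molecules and hold 99.99% of the member reads. The molecules were built from these same fragments, so the high placement follows in part from how they were made. All placed 5' end fragments start at position 1, all placed CCA end fragments stop at 75 and all placed 3' end fragments stop at 72, the base before CCA. The deposited names give no end to 1478 members, called internal here, and none of the placed ones touches an end of its molecule. A count minimum of 50 in at least 4 libraries left 110 members for the tests, which hold 94.5% of the member reads. Of the rest, 175 were a single read, and 345 of the 1744 members were found in all 8 libraries. Of the 110, 77 reached the minimum in every library, 23 in more control than activated libraries and 1 in more activated than control libraries. More of them thus passed with the help of controls than of activated libraries. Whether the filter itself favours members that are higher in controls was not tested.

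The anticodons differ in which end is found. In Glu-CTC reads, 5' end fragments made up 93.9, 96.5, 94.1 and 91.4% in activated replicates 1 to 4 and 96.7, 96.9, 97.4 and 93.8% in control replicates 1 to 4. Replicate 4 was the lowest of each group, and the groups overlap. For Glu-TTC the 5' end gave a small minority: 4.87, 5.66, 4.83 and 2.86% of reads in activated and 9.03, 8.52, 9.48 and 6.99% in control replicates 1 to 4. All activated libraries lay below all controls in that share. The CCA end gave 36.1% to 55.0% of Glu-TTC reads and internal fragments 35.6% to 53.4%. Fragments named 3' end without CCA gave at most 1.04% of Glu-TTC reads and 0.247% of Glu-CTC reads in any library.

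All 220 fragments named after both anticodons lie on the joined Glu-CTC molecule and 1 of them also on a Glu-TTC molecule. An entry for Glu-TTC in the annotation may hold the same stretches, which could not be looked up, so the anticodon these fragments came with is not known, and the 4 CCA fragments named Glu-CTC alone all start at 31 to 38. CCA fragments were scarce under both names, at 26.6 ± 12.7 RPM (SD, n = 4) in controls for Glu-CTC and 63.5 ± 13.0 for the shared name, against 1926 ± 552 for Glu-TTC, where RPM is reads-per-million, counts divided by all reads of the library. With every shared read counted as Glu-CTC, the Glu-CTC 5' end would make up 81.1, 87.6, 85.8 and 74.9% in activated and 89.2, 91.0, 93.5 and 85.4% in control replicates 1 to 4, lowest in activated replicate 4.

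On the Glu-CTC molecule, mean coverage by fragments of that name alone in controls was 6037 RPM at position 30 and 104 at position 37, just past the anticodon. The activated means at the same positions were 1963 and 66.3 RPM. Glu-TTC ran the other way: control coverage was 399 RPM at position 30, 886 at position 37 and 3671 at position 58. Activated means there were 172, 605 and 3015 RPM, at 0.430, 0.683 and 0.821 of control. The ratio of the groups thus lies nearest 1 over the 3' part, though the gap in RPM is wider at position 58 than at position 30.

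**Figure D1:**
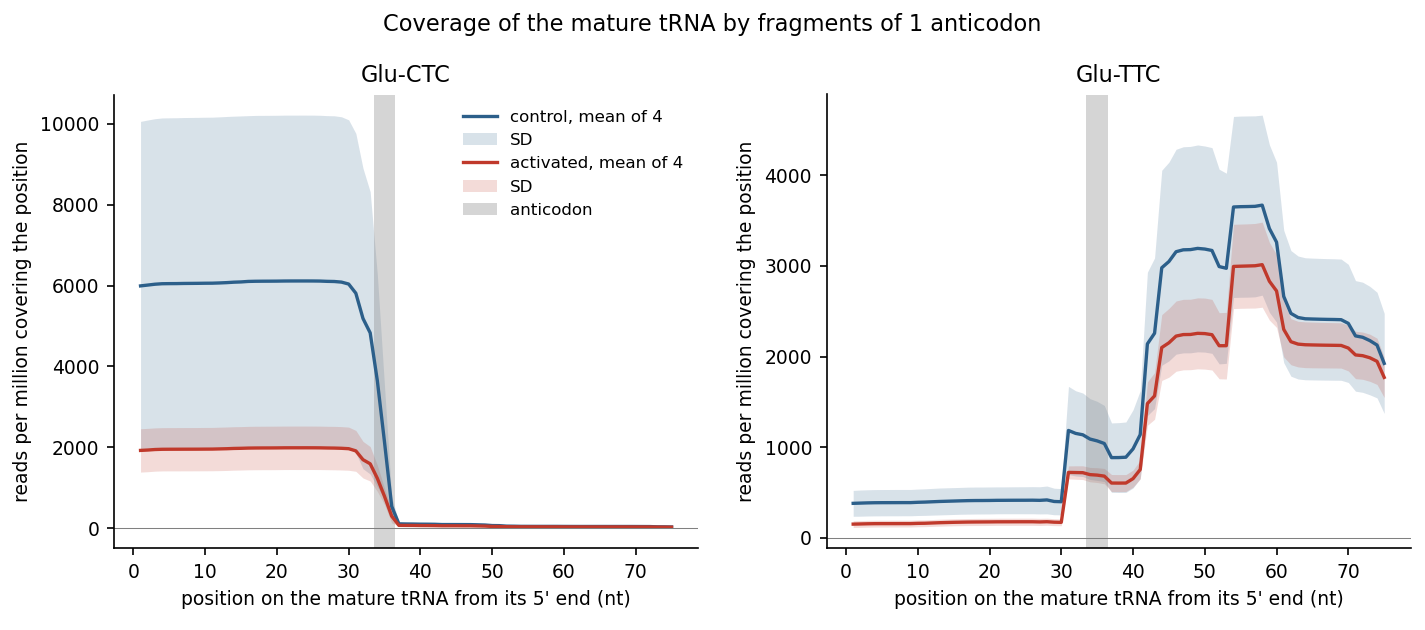
RPM that cover each position of the mature Glu-CTC (left) and Glu-TTC (right) molecule, for fragments named after that anticodon alone; lines are means of 4 libraries, shading is the SD and the grey band is the anticodon. Shared fragments are not drawn, and Glu-CTC coverage in controls is 6037 RPM at position 30 and 104 at position 37.

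Stops of Glu-CTC 5' fragments fell in and beside the anticodon loop, with 97.9% to 99.1% of the reads of that name ending at positions 30 to 37 in each library. The same window took 91.7% to 94.9% of Glu-TTC 5' end reads. Position 54 was the commonest start of Glu-TTC CCA fragments, with a mean of 672 RPM over the 8 libraries, followed by position 42 with 311, position 31 with 309.7 and position 44 with 235. Those at position 31 are all of 45 nt, the longest length kept, so longer 3' pieces are not seen. Internal Glu-TTC fragments started most often at 42 (549 RPM), 44 (389.9 RPM) and 31 (367 RPM) and stopped most often at 60 (538 RPM), so starts at 31, 42 and 44 recur in internal and CCA fragments.

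The first comparison asks whether activation changed the amount of each kind of tRNA-Glu fragment. Most kinds were lower in activated sperm on average, the 5' ends by the widest margin and the CCA end of Glu-TTC by little. Counts of each label, an RNA name with its end, were fitted over all labels, and a label was called when its Benjamini-Hochberg adjusted p was below 0.05 and its log2 fold change at least 1 in size. No tRNA-Glu sum was called by edgeR, and the 5' end of Glu-TTC was called by DESeq2. In these bulk libraries, fewer cells that carry a fragment and less of it in each cell cannot be told apart.

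Glu-CTC 5' end fragments, the most abundant kind, stood at 2040.3, 2556, 1825 and 1261 RPM in activated replicates 1 to 4 and at 5341, 4425, 11809.6 and 2389 RPM in control replicates 1 to 4. Control replicate 3 was far above the rest and control replicate 4 below activated replicate 2, so the groups overlap by that library alone. The means were 1921 ± 536 (SD, n = 4) and 5991 ± 4070.5 RPM (SD, n = 4), a ratio of 0.321 of control, with p = 0.0571 in the two-sided exact permutation test. Without control replicate 4 the ratio was 0.267 and p = 0.0286 (exact permutation test), and over all leave-one-out fits it ranged from 0.267 to 0.474. Within the rich set the ratio was 0.255 and within the poor set 0.484, and in each set both activated libraries lay below both controls. In the edgeR fit over all 618 labels tested, the log2 fold change was -1.58 ± 0.482 (SE) with an adjusted p of 0.562, and DESeq2 gave -1.25 with an adjusted p of 0.0812.

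Glu-TTC 5' end fragments were scarcer, at 188, 178, 135 and 109 RPM in activated and 463, 368, 511 and 186 RPM in control replicates 1 to 4. Activated replicate 1 (188) and control replicate 4 (186) touch, and the other activated libraries lie below all controls. The ratio of means was 0.399 of control, with p = 0.0571 (two-sided exact permutation test, n = 4 per group), and 0.340 with p = 0.0286 (exact permutation test) without control replicate 4. It was 0.321 within the rich set and 0.534 within the poor set. edgeR gave a log2 fold change of -1.28 ± 0.331 (SE) with an adjusted p of 0.562. DESeq2 called it lower, with a shrunken log2 fold change of -1.09 and an adjusted p of 0.0305, against a range of 0.031 to 0.815 over all alternatives.

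The CCA end of Glu-TTC stood at 1998, 1687, 1501 and 1897 RPM in activated and 2236, 2379, 1946 and 1143 RPM in control replicates 1 to 4. Control replicate 4 was the lowest of all 8 libraries and control replicate 2 the highest, so the groups overlap widely. The ratio was 0.920 of control (two-sided exact permutation test, p = 0.657, n = 4 per group), with 0.763 in the rich set and 1.11 in the poor set. The edgeR log2 fold change was -0.08 ± 0.229 (SE), adjusted p = 0.841, within its error of 0.

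Internal Glu-TTC fragments stood at 1644, 1266, 1136 and 1765 RPM in activated and 2395, 1539, 2876 and 1318 RPM in control replicates 1 to 4. The rich controls were highest, the poor controls lay among the activated libraries, and the ratio was 0.456 in the rich set and 1.19 in the poor set. Internal Glu-CTC fragments were fewer, at 112, 73.5, 89.6 and 85.6 RPM in activated and 145, 108, 261 and 149 RPM in control replicates 1 to 4. Activated replicate 1 lay just above control replicate 2, the only overlap, and the ratio was 0.544 of control (two-sided exact permutation test, p = 0.0571, n = 4 per group). edgeR gave adjusted p = 0.562 for internal Glu-CTC (log2 fold change -0.87) and 0.581 for internal Glu-TTC (-0.47).

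The rare kinds were also lower on average over all libraries, though not in each set. Ratios to control were 0.456 for the 3' end of Glu-CTC, 0.805 for its CCA end and 0.623 for the 3' end of Glu-TTC, with overlapping groups in each. Without control replicate 4 the 3' end ratios were 0.365 for Glu-CTC and 0.535 for Glu-TTC, each with p = 0.0286 (exact permutation test), and over all single omissions the ratios reached 0.725 and 0.754 and p reached 0.457 and 0.257 (exact permutation tests). In the poor set they were 0.770 and 0.883. For the shared names they were 0.404 at the 5' end, 0.580 at the 3' end, 0.971 at the CCA end and 0.685 for internal fragments. In the poor set the direction turned for the CCA ends of Glu-CTC (1.26) and of the shared name (1.502) and for shared internal (1.14) and 3' end (1.03) fragments. Shared 5' end fragments, all of 15 to 18 nt, held only 3.09, 1.601, 2.51 and 1.59 RPM in activated and 3.14, 4.93, 7.96 and 5.72 RPM in control replicates 1 to 4. Their groups do not overlap, with p = 0.0286 (two-sided exact permutation test, n = 4 per group), the smallest p that 4 against 4 can give, and too few counts for the fits. Without any 1 of the activated libraries p was 0.0571, and scaled to nuclear tRNA reads it was 0.0857 (exact permutation tests).

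Of 10 tRNA-Glu labels tested by edgeR, all had a negative log2 fold change and 0 were called, with 3 lower at an unadjusted p under 0.05 and 1 called lower by DESeq2. Without control replicate 4, edgeR had 7 of the 10 lower at that unadjusted p, against 42 of all 601 labels, and called 0. Over all 618 labels, edgeR called 0 lower (0%), 6.31% were lower at an unadjusted p under 0.05, and DESeq2 called 0.485% lower. The median log2 fold change was -0.58 over the 10 labels and -0.07 over all 618. Without control replicate 3 it was -0.33 over 9 tRNA-Glu labels, 1 of them positive, and -0.02 over all 609. In the plot of summed reads by library, the 5' ends of both anticodons show the widest gap between groups and the CCA end of Glu-TTC the narrowest of the abundant kinds.

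**Figure D2:**
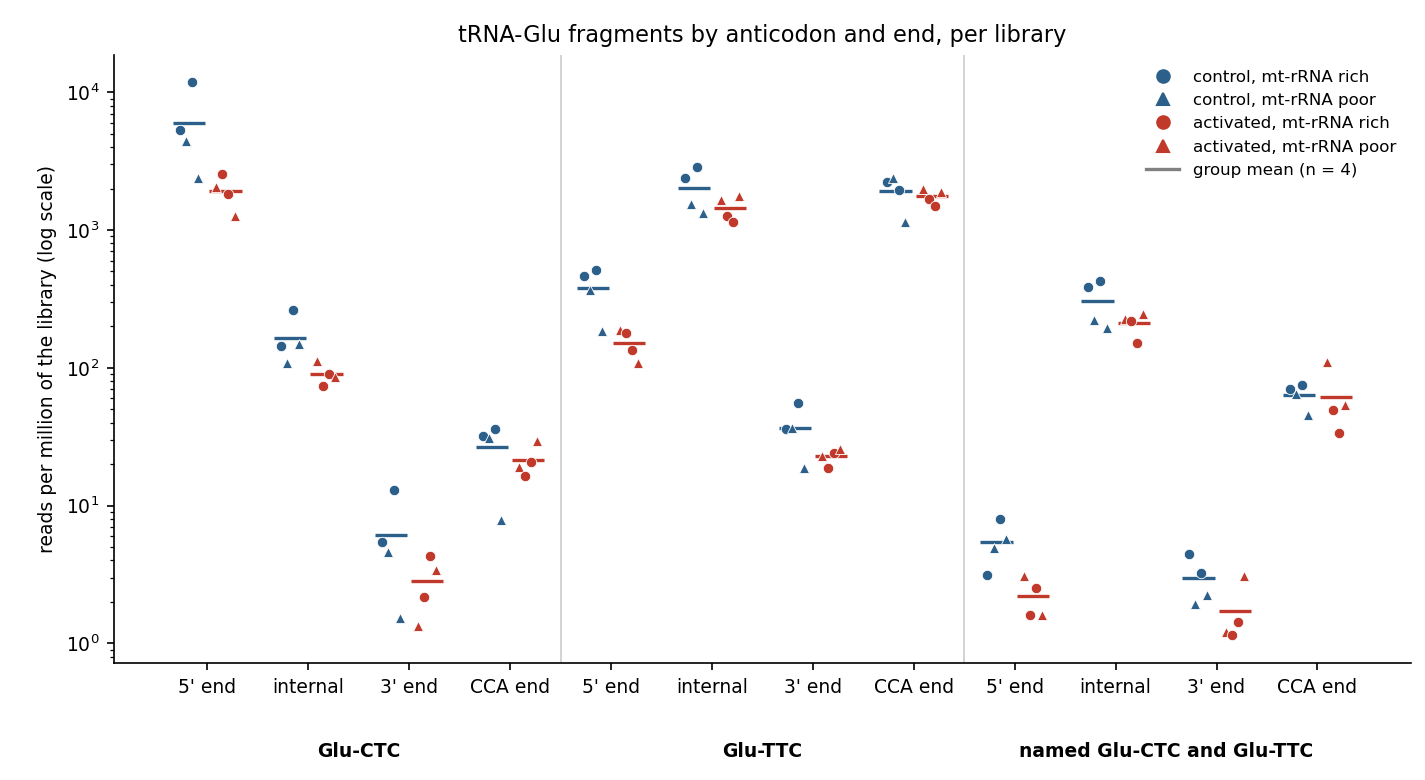
RPM of each library (log scale) for tRNA-Glu fragments by anticodon and end, with circles for the mt-rRNA rich set, triangles for the poor set and lines for group means (n = 4). Glu-CTC 5' end fragments average 1921 RPM in activated and 5991 RPM in control libraries, Glu-TTC CCA end fragments 1771 and 1926.

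Single fragments were compared next, in fits over all 12077 fragments that passed the filter. edgeR called 0 of the 110 tRNA-Glu fragments, with 25 lower and 0 higher at an unadjusted p under 0.05 and a lowest adjusted p of 0.105. Over all fragments it called 61 higher and 0 lower (0%) and had 4.12% lower at an unadjusted p under 0.05, against 22.7% of the tRNA-Glu fragments. With a covariate for the mitochondrial rRNA set, edgeR called 3 tRNA-Glu fragments lower (lowest adjusted p 0.0203), of 7 called lower among all 12077. DESeq2 called 12 tRNA-Glu fragments lower and 0 higher, 10.9% of those tested against 0.373% of all fragments. In 6 of the 110 (5.45%) every activated library lay below every control library, against 1.47% of all fragments, and 1 of the 6 reached the count minimum in controls alone. The median log2 fold change by edgeR was -0.53 over the 110 and 0.01 over all fragments, and 100 of the 110 were negative. Without control replicate 3 it was -0.35 over 104 tRNA-Glu fragments, 89 of them negative, and 0.02 over all 10723.

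All 12 fragments that DESeq2 called are 5' fragments, 5 of Glu-CTC (29, 31, 32, 33 and 35 nt) and 7 of Glu-TTC (28, 30, 31, 32 and 34 nt of copy 1, 31 and 33 nt of copy 2). The 28 nt fragment of copy 1 reached the minimum of 50 counts in all controls and in no activated library, so the filter let it in by its controls alone. The 31 nt fragment of Glu-TTC copy 1 stood at 3.82, 5.95, 4.47 and 5.85 RPM in activated and 56.3, 15.96, 41.5 and 7.11 RPM in control replicates 1 to 4. Every activated library was below every control, the rich controls being several times the poor ones, and the edgeR log2 fold change was -2.53 ± 0.534 (SE) with an adjusted p of 0.105 (DESeq2 -2.22, adjusted p = 0.00054). The 31 nt fragment of Glu-CTC stood at 156, 309, 233 and 157 RPM in activated and 719, 476, 927 and 339 RPM in control replicates 1 to 4. The groups do not overlap here either, with the rich controls highest, and edgeR gave -1.58 ± 0.336 (SE), adjusted p = 0.106 (DESeq2 -1.33, adjusted p = 0.00166). The other 10 had edgeR log2 fold changes from -2.27 to -1.43 and DESeq2 adjusted p from 0.00373 to 0.0371.

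The most abundant tRNA-Glu fragment, the 35 nt 5' piece of Glu-CTC that ends within the anticodon, stood at 452, 663, 466 and 356 RPM in activated and 1328, 1230.3, 3194 and 529.6 RPM in control replicates 1 to 4. Control replicate 3 was highest by far and control replicate 4 lay among the activated libraries. edgeR gave -1.72 ± 0.468 (SE) with an adjusted p of 0.275, and DESeq2 called it at -1.30 with an adjusted p of 0.0371. Its 34 nt neighbour had an edgeR log2 fold change of -1.81 (adjusted p = 0.309) and a DESeq2 adjusted p of 0.0537, just past the threshold. The 36 nt piece, which ends with the whole anticodon, differed in 1 library: it stood at 470.4 RPM in activated replicate 1 against 181, 124 and 119 in activated replicates 2 to 4 and 357, 417, 703 and 233 in control replicates 1 to 4. For the 36 nt piece of Glu-TTC copy 1, the most abundant Glu-TTC 5' fragment, RPM were 78.5, 48.7, 34.02 and 31.6 in activated and 87.8, 125, 126 and 60.01 in control replicates 1 to 4, again with activated replicate 1 among the controls. Its edgeR log2 fold change was -1.05 ± 0.426 (SE), adjusted p = 0.650 (DESeq2 adjusted p = 0.330).

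Among 3' pieces, the 22 nt CCA fragment of Glu-TTC from position 54 was the most abundant, at 699, 698, 465 and 591 RPM in activated and 484, 758, 277 and 382 RPM in control replicates 1 to 4. It was higher on average in activated sperm, with control replicate 2 the highest of all libraries and control replicate 3 the lowest. edgeR gave a log2 fold change of 0.32 ± 0.386 (SE), adjusted p = 0.999, which is within its error of 0. The longer 34 nt CCA fragment from position 42 stood at 203, 159, 152 and 256 RPM in activated and 344, 267, 270.4 and 136 RPM in control replicates 1 to 4. There control replicate 4 was lowest and the log2 fold change was -0.37 ± 0.351 (SE), adjusted p = 0.999 by edgeR. The 19 nt internal fragment, which starts at the same position 42, stood at 309, 271, 215 and 373 RPM in activated and 517, 293, 570.4 and 266 RPM in control replicates 1 to 4, overlapping, with a log2 fold change of -0.48 (edgeR adjusted p = 0.999). The 45 nt CCA fragment of Glu-CTC from position 31 ranged from 7.18 to 32.8 RPM, with overlapping groups and an edgeR adjusted p of 0.999.

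The remaining kinds were led by rare fragments: the 42 nt 3' end pieces from position 31 of Glu-CTC (edgeR log2 fold change -1.13, adjusted p = 0.817) and Glu-TTC (-0.46, 0.999) and a 21 nt internal piece of Glu-CTC from position 31 (-1.13, 0.750). Of the shared names, the 15 nt CCA fragment had 0.36 (adjusted p = 0.999) and the 19 nt internal one from position 42 had -0.55 (adjusted p = 0.925) by edgeR, while the leading 15 nt 5' and 31 nt 3' fragments had too few counts to be tested. The positive value of that CCA fragment rests on activated replicate 1, at 76.6 RPM, the other activated libraries being at 13.9 to 20.4 RPM, below the control mean of 26.5 RPM; it matches the genome, so its CCA need not have been added. By kind, the median edgeR log2 fold change of the tested fragments was -1.71 for 10 Glu-CTC 5' fragments, -1.57 for 14 Glu-TTC 5' fragments, -0.37 for 25 Glu-TTC CCA fragments and -0.50 for 42 internal Glu-TTC fragments. All 24 of the 5' fragments were negative, from -2.53 to -0.89, and 23 of them had an unadjusted p under 0.05 by edgeR, while of the 67 CCA and internal Glu-TTC fragments 58 were negative and 2 had one. Over all 12077 fragments, 4.12% were lower at that unadjusted p. Many of these 5' fragments are lengths of the same molecule from the same libraries, so they are not independent.

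The length of a 5' fragment gives the position at which it stops, and the next comparison asks whether activation changed the lengths. Every length of the 5' end with enough counts to be tested was lower in activated sperm on average, none was called by edgeR, and mean lengths barely differed.

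Glu-CTC 5' fragments were mostly of 33 to 35 nt, which took 59.9% to 75.8% of the reads of that name, with a second peak at 31 nt. Their mean length was 33.2 to 33.98 nt in the 8 libraries, with overlapping groups. In activated replicate 1 the 36 nt piece took 23.1% of them, against 5.95% to 9.74% in the other 7 libraries. Glu-TTC 5' fragments peaked at 36 nt instead, with 64.5, 46.5, 41.7 and 41.7% in activated and 31.8, 53.7, 38.3 and 52.8% in control replicates 1 to 4. Activated replicate 1 was the highest and control replicate 1 the lowest, and the groups overlap. Their 31 nt class took 3.40, 6.35, 6.12 and 7.63% in activated and 18.1, 6.62, 11.5 and 6.10% in control replicates 1 to 4, highest in the rich controls.

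Reads of 30 nt or longer made up 98.1, 98.8, 98.6 and 98.1% of tRNA-Glu 5' end reads in activated and 97.5, 98.7, 98.7 and 98.4% in control replicates 1 to 4. All libraries lay within a narrow band, with control replicate 1 lowest, and the means differed by 0.0323 percentage points (two-sided exact permutation test, p = 0.914, n = 4 per group, adjusted p = 0.914 over 6 shares and ratios). The difference was 0.556 points in the rich set and -0.491 points in the poor set, so its sign is not stable.

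As classes of label and length, 84 tRNA-Glu classes were tested among 3211, and 78 of the 84 had a negative log2 fold change by edgeR. edgeR called 0 of them, with 25 lower at an unadjusted p under 0.05 (29.8%) and a lowest adjusted p of 0.693, against 0 called lower (0%) and 5.36% lower at an unadjusted p under 0.05 among all classes. Without control replicate 4, edgeR had 40 of 81 lower at that unadjusted p, against 149 of all 3126 classes, and called 0 (lowest adjusted p 0.341). DESeq2 called 4 lower (4.76%, against 0.343% of all classes): 29 and 32 nt of the Glu-CTC 5' end, with log2 fold changes of -1.81 and -1.35, and 28 and 31 nt of the Glu-TTC 5' end, with -1.60 and -1.96. In 9 classes (10.7%) every activated library lay below every control library, against 1.87% of all classes. All 18 tested classes of 5' ends were negative by edgeR, from -2.24 to -0.80, and 17 had an unadjusted p under 0.05. They are lengths of the same few molecules from the same libraries, so they are not independent.

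The most abundant classes were 35, 34 and 33 nt of the Glu-CTC 5' end, with edgeR log2 fold changes of -1.54, -1.61 and -1.58 and SE of 0.470, 0.510 and 0.482. The 22 nt class of the Glu-TTC CCA end had 0.44 ± 0.332 (SE), and the 31 nt class of the Glu-CTC 5' end had -1.37 ± 0.391 (SE). Of these 5, only that last class, nearly all of it 1 fragment, has groups that do not overlap, with an edgeR adjusted p of 0.693. In the plot of 5' end lengths most libraries keep a like shape while their heights differ.

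**Figure D3:**
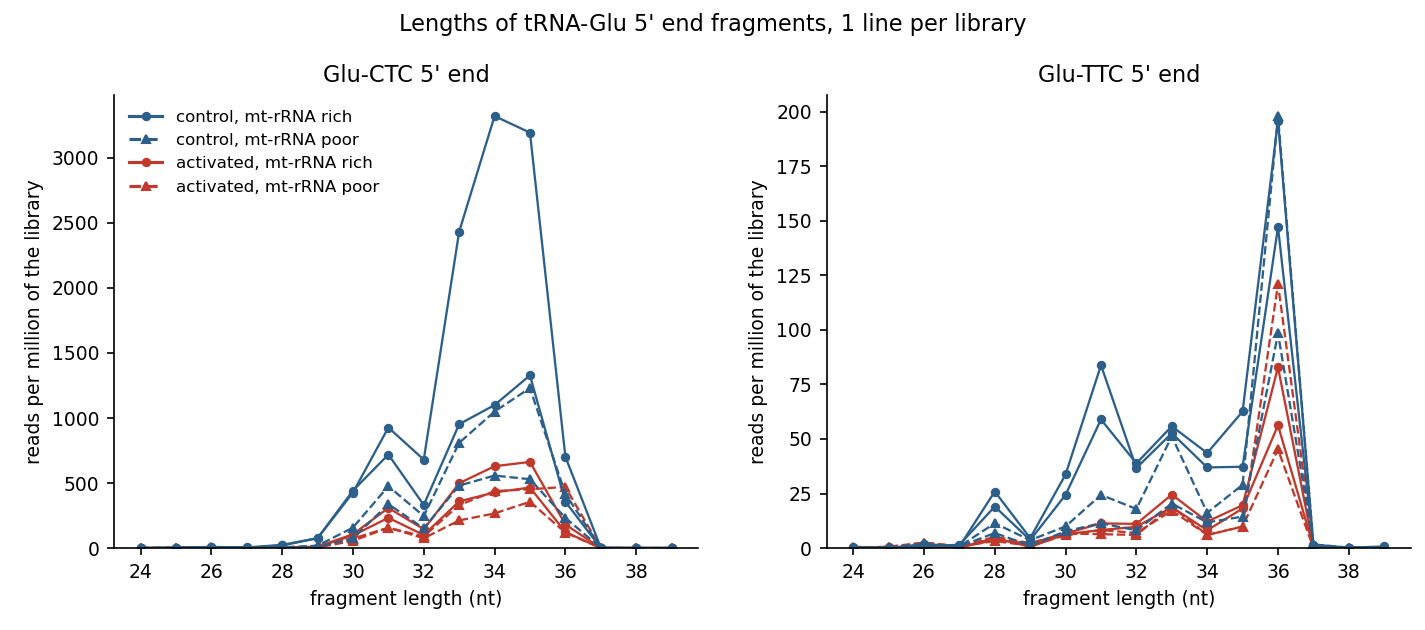
RPM of the library against fragment length in nt for the 5' ends of Glu-CTC (left) and Glu-TTC (right), 1 line per library, solid for the mt-rRNA rich set and dashed for the poor set. Glu-CTC peaks at 34 to 35 nt in most libraries and Glu-TTC at 36 nt, and control replicate 3 reaches 3321 RPM at 34 nt.

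Among CCA fragments of Glu-TTC, the 22 nt class took 43.8, 50.4, 37.3 and 39.5% of reads in activated and 25.8, 39.97, 17.5 and 41.7% in control replicates 1 to 4. Control replicates 1 and 3, both in the rich set, were lowest, and the groups overlap. Starts at 49 to 60, in the arm next to the acceptor stem, gave 815 ± 159 RPM (SD, n = 4) in activated libraries against 643 ± 266 RPM (SD, n = 4) in controls, a ratio of 1.27, and starts at 31 to 38, in and beside the anticodon, a ratio of 0.749, both with overlapping groups. Internal Glu-TTC fragments were short, with 63.9% to 73.4% of reads at 16 to 22 nt.

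The Glu-TTC copies can be told apart at position 6 for 5' ends and at position 66 for CCA ends. Which CCA ends belong with which 5' copy rests on the pairing of these bases and was not read from any fragment. Copy 1 gave 58.7% to 67.4% of Glu-TTC 5' end reads and 48.3% to 63.1% of its CCA reads in the 8 libraries. For 5' ends the ratio of activated to control was 0.392 for copy 1 and 0.412 for copy 2, and for CCA ends 1.02 and 0.805. Neither share differed between groups beyond the spread of the libraries (two-sided exact permutation tests, p = 0.914 for 5' ends and p = 0.114 for CCA ends, n = 4 per group).

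Ratios within a library do not depend on its total, and 6 were compared: which anticodon, which length, which end, and tRNA-Glu against other isotypes. None passed after adjustment over the 6.

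Fragments of the 3' and CCA ends made up 33.8, 29.3, 32.2 and 36.7% of tRNA-Glu reads in activated and 21.4, 27.4, 11.8 and 22.3% in control replicates 1 to 4. All activated libraries lay above all controls, of which replicate 3 was lowest. The means differed by 12.25 percentage points (two-sided exact permutation test, p = 0.0286, n = 4 per group, adjusted p = 0.0857 over the 6), by 14.1 points in the rich set and 10.4 points in the poor set. Without control replicate 4 the difference was 12.8 points and passed after adjustment over the 6, while other single omissions brought it down to 9.28 points and p up to 0.0571 (exact permutation test). With genome-matched reads, which hold few CCA fragments, it was 1.14 points (p = 0.0571, exact permutation test). In RPM the same ends were not higher in activated sperm (CCA ends of all names, ratio 0.920 of control), while 5' ends were at 0.325 of control. Scaled to nuclear tRNA reads the CCA ends turn higher, at 1.199 of control for Glu-TTC, and in the poor set the Glu-TTC CCA end was at 1.11 in RPM.

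The log2 ratio of Glu-CTC to Glu-TTC 5' end reads was 3.44, 3.84, 3.76 and 3.54 in activated and 3.53, 3.59, 4.53 and 3.68 in control replicates 1 to 4. Only control replicate 3 stood apart, and the difference of means was -0.19 (two-sided exact permutation test, p = 0.686, n = 4 per group, adjusted p = 0.823 over the 6). Without control replicate 3 it was 0.05, of the opposite sign.

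Against tRNA-Gly, whose 5' fragments lead the tRNA fragments of sperm, the log2 ratio of 5' end reads was -2.92, -3.05, -2.87 and -3.30 in activated and -2.06, -2.64, -1.29 and -3.01 in control replicates 1 to 4. The rich controls were highest and control replicate 4 lay among the activated libraries, with a difference of -0.79 (two-sided exact permutation test, p = 0.0857, n = 4 per group, adjusted p = 0.171 over the 6), -1.28 in the rich and -0.29 in the poor set. Against tRNA-Asp it was 4.11, 4.60, 4.59 and 4.08 in activated and 5.33, 4.87, 5.35 and 4.29 in control replicates 1 to 4. Those groups also overlap by control replicate 4, with a difference of -0.61 (two-sided exact permutation test, p = 0.114, n = 4 per group, adjusted p = 0.171 over the 6). Against the 5' ends of all other nuclear isotypes it was -4.19, -3.91, -4.09 and -4.67 in activated and -3.13, -3.49, -2.40 and -3.89 in control replicates 1 to 4. Here all activated libraries lay below all controls, with control replicate 4 just above activated replicate 2, and the difference was -0.98 (two-sided exact permutation test, p = 0.0286, n = 4 per group, adjusted p = 0.0857 over the 6), -1.23 in the rich and -0.74 in the poor set. Without control replicate 4 each of these differences had p = 0.0286 (exact permutation test) and passed after adjustment over the 6, at -1.04 for Gly, -0.84 for Asp and -1.21 for all other isotypes. Other single omissions brought them to -0.47, -0.48 and -0.71, and p reached 0.229 for Gly, 0.200 for Asp and 0.0571 for all other isotypes (exact permutation tests).

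As a share of all nuclear tRNA reads, tRNA-Glu took 6.30, 6.48, 6.12 and 5.99% in activated and 8.46, 7.90, 11.7 and 6.80% in control replicates 1 to 4. The activated libraries lay close together and below every control, and control replicate 3 was highest. Nuclear tRNA itself took 10.1, 9.36, 8.05 and 9.15% of all reads in activated and 13.1, 11.6, 15.4 and 8.03% in control replicates 1 to 4, with overlap, so tRNA-Glu was lower within a tRNA pool that was itself lower on average.

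**Figure D4:**
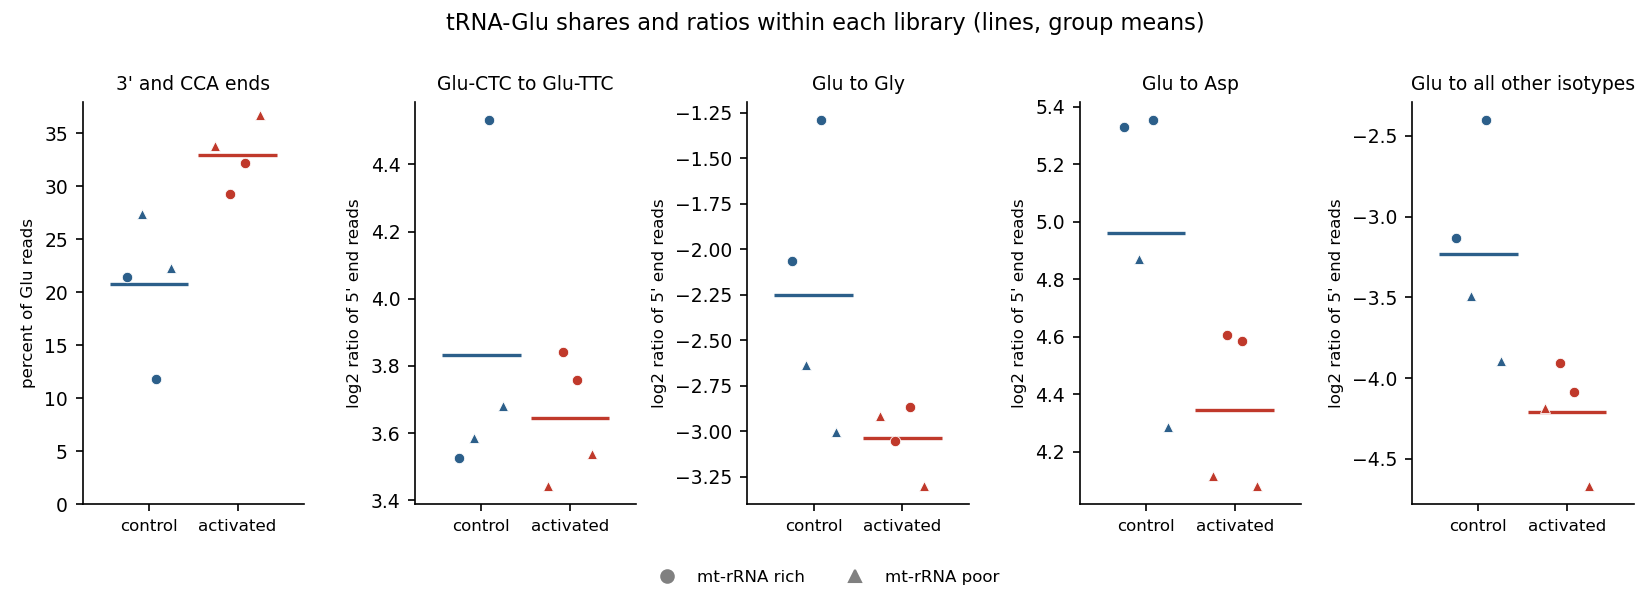
For each library, the percentage of tRNA-Glu reads from 3' and CCA ends and log2 ratios of 5' end reads, with circles for the mt-rRNA rich set, triangles for the poor set and lines for group means (n = 4). Activated libraries hold 29.3% to 36.7% of tRNA-Glu reads in 3' and CCA ends and controls 11.8% to 27.4%.

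The 5' ends of other nuclear tRNAs give the setting. Of 29 nuclear tRNA 5' labels with 1 anticodon tested in the same edgeR fit, tRNA-Glu included, 28 were negative, 0 were called in either direction and 10 were lower at an unadjusted p under 0.05, both tRNA-Glu labels among them. Glu-CTC ranks 2 and Glu-TTC ranks 4 from the lowest, with Ser-GCT (-1.68 ± 0.676, SE) below Glu-CTC and His-GTG (-1.43 ± 0.576, SE) between them, and neighbours in that order lie within each other's standard errors. The 27 other labels had a median of -0.58 and ranged from -1.68 to 0.17. On the log2 scale, edgeR gave -0.58 for Gly-GCC, -1.23 for Gly-CCC, -0.86 for Asp-GTC, -0.86 for Lys-CTT, -0.36 for Lys-TTT and -1.05 for Ser-TGA. It gave -0.84 for Val-CAC, -0.87 for the label shared by Val-AAC and Val-CAC and -0.30 for Leu-CAA.

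**Figure D5:**
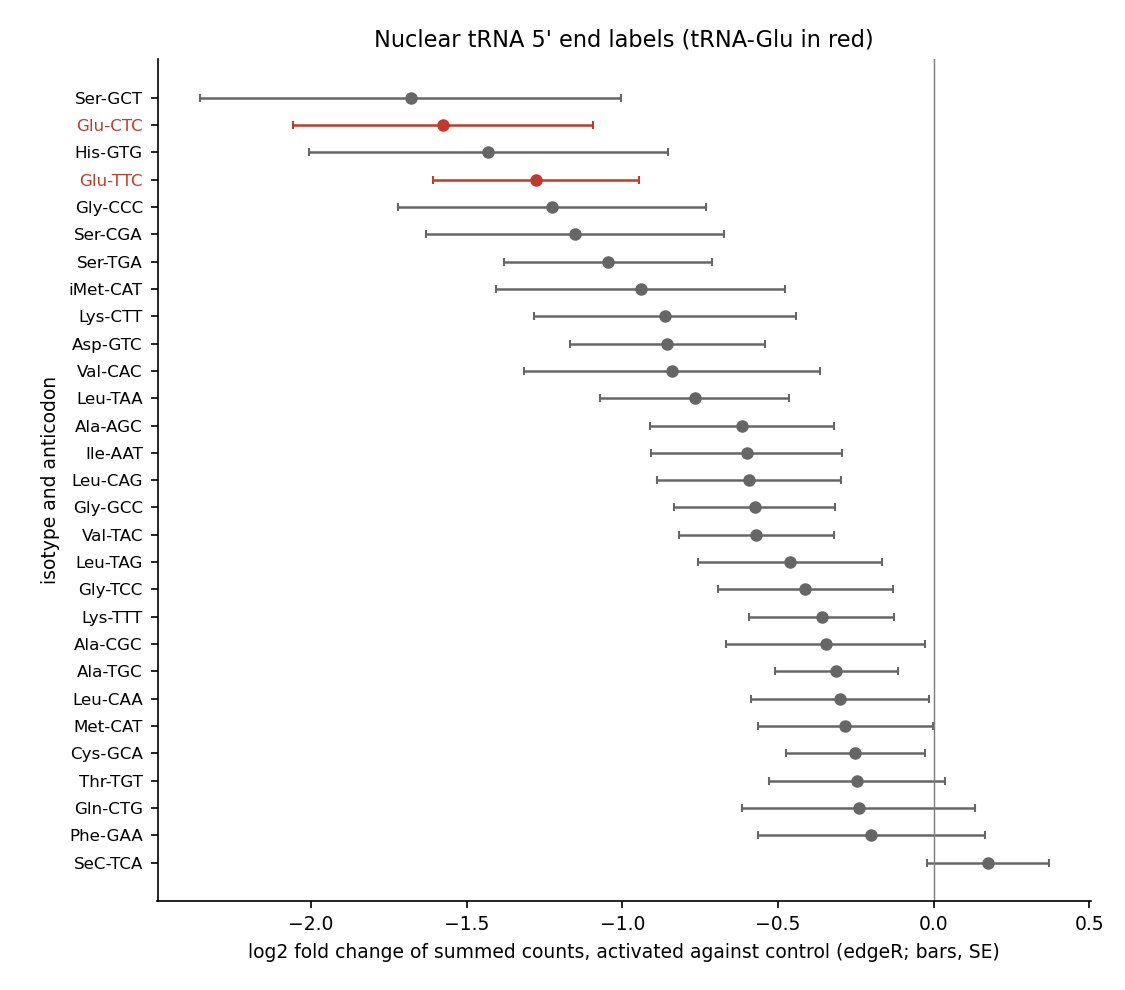
Log2 fold change of summed 5' end counts, activated against control, for 29 nuclear tRNA labels with 1 anticodon (points, edgeR estimates; bars, SE; tRNA-Glu in red). Glu-CTC (-1.58) and Glu-TTC (-1.28) lie at the low end. No label was called by edgeR. DESeq2 called 3 of all 618 labels lower, 1 of them Glu-TTC (adjusted p = 0.0305), and its results for the other isotypes drawn are not given.

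Over the 8 libraries, the labels whose log2 RPM was most like that of the Glu-CTC 5' end among 105 compared were the 5' ends of Glu-TTC (Pearson r = 0.953), Gly-CCC (0.949), His-GTG (0.948), Lys-CTT (0.944) and Asp-GTC (0.935), given as a description with n = 8. The points share library totals and sets, the median r of the 105 was 0.637, and the CCA end of Glu-TTC had r = 0.388. Mitochondrial tRNA-Glu, a separate molecule with the same anticodon as Glu-TTC, had CCA end fragments at 22.3, 15.7, 22.02 and 13.2 RPM in activated and 24.1, 32.05, 59.7 and 28.02 RPM in control replicates 1 to 4, with no overlap and an edgeR log2 fold change of -0.93 (adjusted p = 0.562). Its 5' end fragments were too few for the fits, at 0.805, 3.54, 0.949 and 2.02 RPM in activated and 0.725, 2.42, 1.51 and 2.44 RPM in control replicates 1 to 4, a ratio of 1.03 with overlapping groups. Its 3' end fragments had 0.92 and its internal fragments 0.31 (edgeR log2 fold changes, adjusted p = 0.562 and 0.652).

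Markers of cell types were summed from the same libraries beside these values. Of 10 miRNAs typical of testis and sperm, all were found, none was lower on average in activated sperm, miR-465 was the most abundant, and they summed to 49978, 37898, 31432 and 50060.0 RPM in activated and 33474, 43524, 25205 and 37850.2 RPM in control replicates 1 to 4. Their sum was lowest in control replicate 3, the library richest in tRNA-Glu. All 3 erythrocyte miRNAs were lower on average in activated sperm, miR-451a the most abundant, with sums of 298, 83.5, 113 and 84.1 RPM in activated and 235, 532, 976 and 659 RPM in control replicates 1 to 4, highest in control replicate 3. All 7 epithelial miRNAs, miR-200c the most abundant, were also lower on average, with 3476, 1166, 1085 and 1196 RPM in activated and 1364, 1825, 2732 and 19420.2 RPM in control replicates 1 to 4. The 5 miRNAs of smooth muscle and vessel, miR-143 the most abundant, summed to 524, 258, 180.2 and 374 RPM in activated and 255, 445, 307 and 36472 RPM in control replicates 1 to 4. Control replicate 4 was far above the rest in both of these lists, and it was the control with the least tRNA-Glu. Without it 5 of the 7 epithelial and 2 of the 5 smooth muscle and vessel miRNAs were lower on average, and the ratios of the sums were 0.877 and 0.996 of control, so the lower averages rest mostly on that library. Of 4 leukocyte miRNAs, miR-142a the most abundant, 1 was lower on average, and sums were 862, 398, 655 and 581 RPM in activated and 343, 454, 295 and 553 RPM in control replicates 1 to 4. No marker of the 5 lists was at 0 over the 8 libraries. Reads that match the genome took 74.4, 72.9, 63.4 and 74.6% in activated and 67.2, 74.4, 59.1 and 77.7% in control replicates 1 to 4, lowest in control replicate 3. The part of these cell types and of library make-up in the tRNA-Glu values was not tested.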

How the data were processed

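The tables deposited by the authors were read. Counts are the authors' raw reads of each distinct fragment (SPORTS1.1, 15 to 45 bp, duplicates kept, 0 mismatches); expected counts are the authors' summary per RNA, where a read is divided among the RNAs it matches, and served as an alternative only. Neither is normalized. Fragments, labels and label and length classes with at least 50 counts in 4 libraries were fitted over the whole table with edgeR 4.0.16 (TMM, quasi-likelihood) and DESeq2 1.42.0 with apeglm 1.24.0 (R 4.3.3). The edgeR test gives no SE, so each SE is an approximation, the size of the log2 fold change divided by the square root of its F statistic. Fragments without annotation (9.53% to 23.7% of reads) were left out of label and class sums. Single values went through exact permutation over 70 assignments (Python 3.11.15, numpy 2.4.6, pandas 2.3.3; scipy 1.17.1 for intervals; matplotlib 3.10.9 for figures). Named fragments are the most abundant of each anticodon and end, all called by edgeR or DESeq2, the 3 most abundant tested others and the 5 most abundant classes; the 31 nt fragments were singled out after their values were seen. Members and lists were chosen with earlier results of these data known. Wilson intervals of a share in 1 library are at most 0.832 percentage points wide for 3' and CCA ends and for 30 nt or longer, 1.04 for ends within an anticodon and 6.03 for lengths of Glu-TTC 5' reads; they cover counting error only. Alternatives were other scalings, filters, bounds and tools, genome-matched reads, a replicate block, a covariate for the mitochondrial rRNA set and leaving out each library.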

Additional observations from a re-analysis of the deposited data

Results flagged for a closer look

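In 8 of 98 groups of 4 libraries looked at, 1 library lay far from the others of its group, with a gap to its nearest neighbour that took up most of the range of the group. For independent, normally distributed values, chance gives such a gap in about 1 in 20 groups. These groups share the same libraries and overlapping reads, so that rate need not hold here. Among values that the comparisons rest on, the log2 ratio of Glu-CTC to Glu-TTC 5' end reads was 4.53 in control replicate 3, against 3.53 to 3.68 in the other controls, and without it the difference between groups changed sign, from -0.19 to 0.05. In activated replicate 1, the 15 nt CCA fragment of the shared name was at 76.6 RPM, against 13.9 to 20.4 in the other activated libraries, and its higher activated mean rests on that library. The 33 nt 5' fragment of Glu-TTC copy 2 was at 9.21 RPM in activated replicate 2, against 5.63 to 5.83, still within the range of the controls. The 45 nt CCA fragment of Glu-CTC was at 7.18 RPM in control replicate 4, against 29.02 to 32.8 in the other controls. Activated replicate 4 had 7.12 RPM of the 21 nt internal fragment of Glu-CTC from position 31, against 3.26 to 3.59. The rest are of few reads: shared 3' end fragments at 3.08 RPM in activated replicate 4 (others 1.14 to 1.42), their 31 nt fragment at 1.45 RPM in control replicate 1 (others 0.488 to 0.649) and the shared 15 nt 5' fragment at 1.97 RPM in activated replicate 3 (others 0.8502 to 0.872). No library accounts for all of these gaps, and their causes were not tested.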

How the results depend on the processing

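Over 27 results and 362 values under alternatives, 306 kept their direction and their side of the threshold. The calls depend on the test: 0 tRNA-Glu fragments by edgeR, 12 by DESeq2, 3 with a covariate for the mitochondrial rRNA set (of 7 lower among all 12077 fragments) and 7 of 814 tested when 1 count in 4 libraries was enough (of 1057 lower among 387985), and 0 classes of label and length by edgeR, 4 by DESeq2. Leaving out any 1 library gave 0 fragments and 0 classes by edgeR, as did the other scalings, genome-matched fragments alone, and a replicate block. That block pairs libraries by replicate number, a pairing that the labels do not state. No activated library was most like the control of its number. Likeness followed the mitochondrial rRNA sets, however, so it cannot decide whether the numbers mark pairs. Among the edgeR and DESeq2 fits, the Glu-TTC 5' end sum passed in DESeq2 (-1.09), and the Glu-CTC 5' end sum passed in none (lowest adjusted p 0.081, DESeq2). Leave-one-out log2 fold changes by edgeR were -1.82 to -1.04 for the Glu-CTC 5' end, -1.48 to -1.13 for the Glu-TTC 5' end and -0.24 to 0.0145 for the Glu-TTC CCA end (the highest without control replicate 2), and the last was 0.10 with genome-matched reads, which hold few CCA fragments.

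Scaled to nuclear tRNA reads, the ratio of activated to control was 0.453 for the Glu-CTC 5' end and 0.537 for the Glu-TTC 5' end, and with TMM factors fitted on fragments 0.315 and 0.399, each at p = 0.0286 (exact permutation test). With TMM factors fitted on labels, an alternative chosen after seeing the data, they were 0.335 (p = 0.0571) and 0.412 (p = 0.0286, exact permutation tests), so the Glu-CTC 5' end passes or not with the factors used. The CCA ends turned above 1 when scaled to nuclear tRNA reads: 1.199 for Glu-TTC, 1.13 for Glu-CTC and 1.23 for the shared name. So did the poor set, at 1.11, 1.26 and 1.502 in that order, with 1.19 for internal Glu-TTC, 1.14 for shared internal and 1.03 for shared 3' end fragments. Leave-one-out ratios were 0.267 to 0.474 for the Glu-CTC 5' end, 0.340 to 0.449 for the Glu-TTC 5' end, 0.810 to 0.998 for the Glu-TTC CCA end and 0.713 to 1.12 for the shared CCA end.

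The difference in reads of 30 nt or longer has no stable sign: 0.556 points in the rich and -0.491 in the poor set, -0.260 with a bound of 28 nt, 0.902 with a bound of 32 nt, and -0.255 to 0.161 when 1 library was left out. Leave-one-out differences were -0.29 to 0.0471 for the log2 ratio of Glu-CTC to Glu-TTC (the highest without control replicate 3), 9.28 to 14.5 points for the share of 3' and CCA ends, and -1.04 to -0.47, -0.84 to -0.48 and -1.21 to -0.71 for the log2 ratios to Gly, Asp and all other isotypes. With genome-matched reads, which hold few CCA fragments, the share of 3' and CCA ends differed by 1.14 points (p = 0.0571, exact permutation test). Control replicate 4 decides whether the adjusted p over the 6 passes for the ratios to Gly, Asp and all other isotypes and for the share of 3' and CCA ends (12.8 points without it). The causes of these shifts were not tested.

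Limits: 4 libraries a group allow no permutation p under 0.0286, too high to pass after adjustment over many labels. RPM are shares of a library, so they move with every other RNA in it. Reads above 45 nt are missing, which hides 3' pieces longer than that and whole tRNAs. Modified bases that stop reverse transcription, and ends that ligate poorly, were not measured. Fragments with both names cannot be given to an anticodon. Depth limits shared 5' and 3' end fragments most, which were too few for the fits.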
